A study of Mus musculus with 18 samples.

Results

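Control crypts of the mouse small intestine were profiled on 4 arrays, out of 18 in the series, and were taken as all samples titled control. The mice were 2 months old, and crypts were collected 2 days after the gene deletions of the study. Those deletions used Ah-cre, an inducible recombinase under control of the promoter of Cyp1a1, a gene induced through the aryl hydrocarbon receptor. For the controls the labels give no alleles, and they do not say whether these mice carried the recombinase or received the inducer, so the crypts are called control here and not untreated. The other arrays come from crypts that lack E2f1, E2f2 and E2f3 (E2f TKO, 5 arrays), that lack Myc (Myc KO, 4 arrays) or that lack all of these genes (E2f/Myc QKO, 5 arrays). They were used only to choose the probe set of each gene and to show spread within a group. Strain, sex and batch are not given in the labels, and nothing states that each sample is a separate animal.

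Crypts are the pockets between the villi in which intestinal stem cells divide. Their progeny divide a few more times and become absorptive enterocytes or secretory cells. The secretory types are mucus-making goblet cells, hormone-making enteroendocrine cells, chemosensory tuft cells and the antimicrobial Paneth cells that stay at the crypt base. Crypts are isolated from a tissue that also holds lymphocytes, macrophages, fibroblasts, muscle and vessels, so lists of genes for these cells were described beside the epithelial ones.

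The values are log2 signals of 18193 genes, each given by 1 probe set. A signal depends on the probes as well as on the transcript, so ranks below are ranks of probe set signals and not of transcript amounts. In this bulk RNA, fewer cells of a type and less RNA per cell cannot be told apart. Medians of the control arrays were 6.15 to 6.16, and the mean signal of a gene over the 4 arrays ran from 2.68 to 14.73, with a median of 7.18. No detection calls were used, so a list of 21 genes of distant tissues (sperm, pituitary, heart, lung, kidney and others) was taken as a guide to signals near background. Its median was 4.88 and its highest member, the sperm protamine gene Prm1, reached 7.19, which 9094 genes (50%) exceeded. Control 1 stood apart from the other control arrays. It correlated with them at 0.990 to 0.991 across genes, against 0.995 to 0.996 among controls 2, 3 and 4, where genes are not independent replicates. Bacterial RNAs added during sample preparation (27 probe sets) averaged 7.85 on control 1, against 6.60, 6.59 and 6.44 on controls 2 to 4 and 6.39 to 7.08 on the other 14 arrays. The hybridisation controls were between 11.08 and 11.22 on all 4 control arrays, and the 3′ minus 5′ signal of actin was 0.31 to 0.44. Counts of genes with a range of at least 1, over all genes and in the lists where they are named, are given with and without control 1. List medians and counts that use the genes of highest SD are given with it included.

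The strongest signals of control crypts came from genes of protein synthesis, of Paneth cells and of absorptive epithelium. The highest gene was Fth1, the heavy chain of the iron store ferritin, with 14.75, 14.75, 14.74 and 14.68 in controls 1 to 4. Next stood the translation elongation factor Eef1a1 at 14.62 ± 0.04 (SD, n = 4) and Lyz1, the lysozyme of Paneth cells, at 14.58 ± 0.04. Of the 20 highest genes, 7 encode ribosomal proteins, led by Rpl41 at 14.57 ± 0.03 and Rps29 at 14.53 ± 0.02. Epithelial genes in the same group were Reg1, a secreted lectin (14.52 ± 0.10), Fabp1, the fatty acid carrier of enterocytes (14.49 ± 0.05), the lectins Lgals2 (14.38 ± 0.02) and Lgals4 (14.36 ± 0.04), Pigr, which carries antibodies across the epithelium (14.35 ± 0.02), and the alpha-defensin Defa39 (14.31 ± 0.17). The remaining members were Tpt1, Atp5g3, Actb and Cox5b. These 20 genes lie between 14.25 and 14.73, and Fth1 exceeded the other 19 on every array, while neighbours such as Eef1a1 and Lyz1 overlapped between arrays. Among genes in the top 10% of signals, those with the smallest spread were Ap3s1, Gnas, Sfxn1, Jtb and Vdac2. Each had a range of at most 0.023 over the 4 arrays.

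Genes that define the crypt epithelium were high and nearly constant. All 19 members of the epithelial core list lay above the highest distant-tissue gene, and 17 of 19 were in the top 10% of signals, which begins at 10.73. The list median was 12.69. Keratins Krt19 and Krt8, which form the intermediate filaments of simple epithelia, had 14.11 ± 0.07 and 14.04 ± 0.02, and the adhesion molecule Epcam 14.10 ± 0.06 (SD, n = 4 each). The intestinal identity factors Cdx1 and Cdx2 were the lowest members, each at 10.52. The widest spread in this list was that of Gpx2, a glutathione peroxidase of the gut epithelium, which had 13.42, 12.80, 13.57 and 13.45 in controls 1 to 4. Only control 2 was low.

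**Figure D1:**
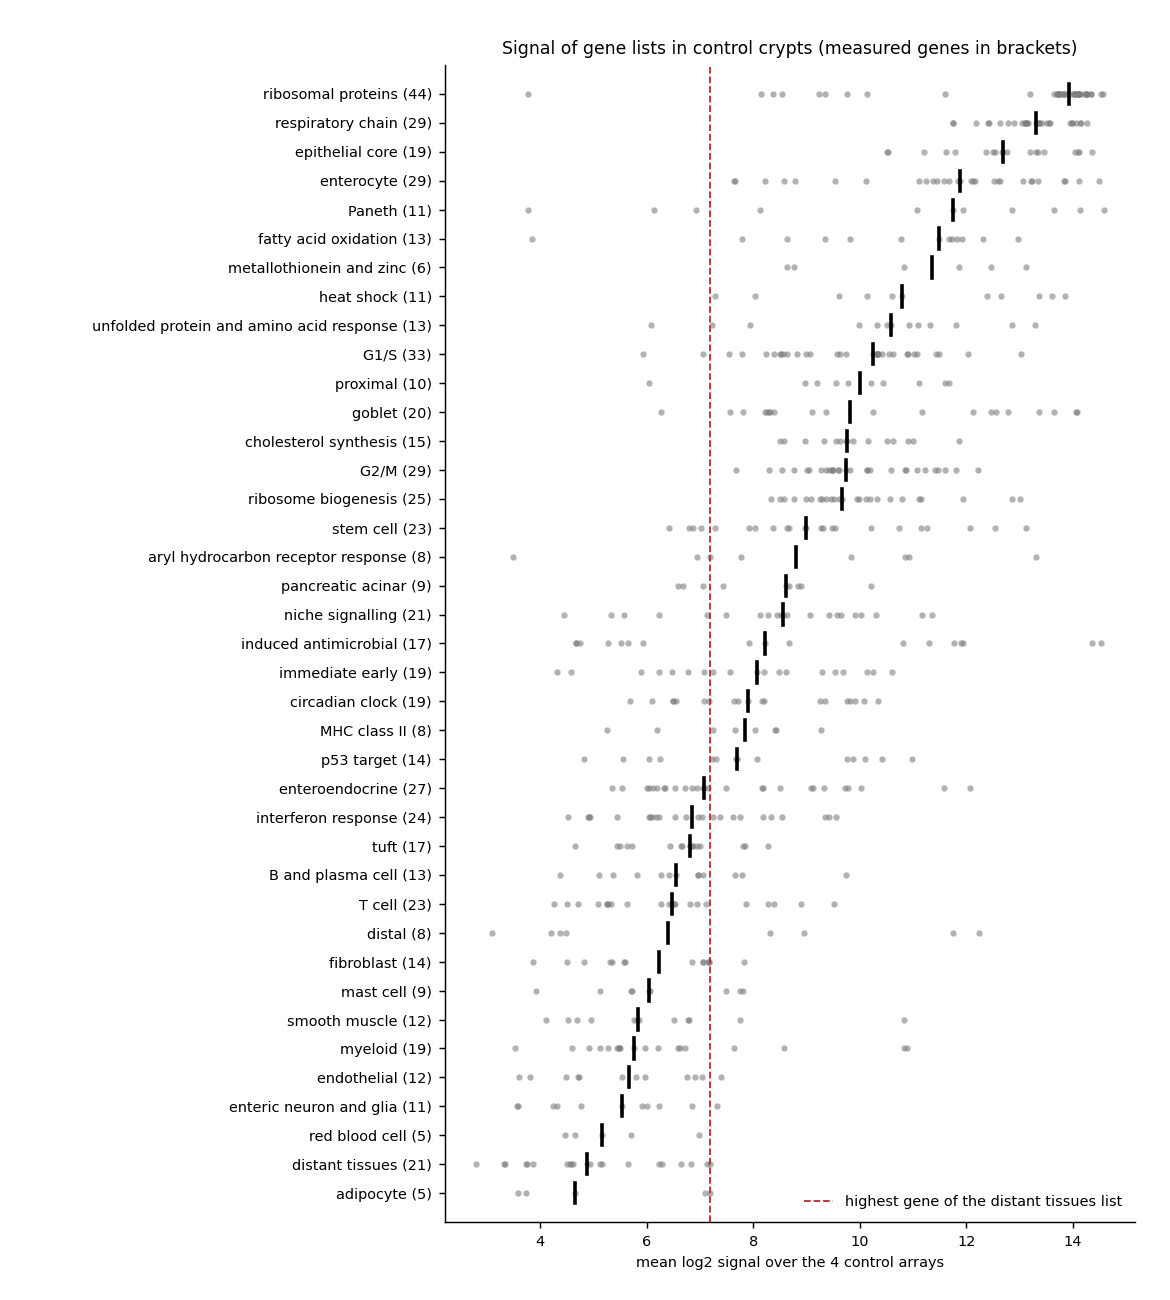
Mean log2 signal over the 4 control arrays (x axis) of the measured genes of 39 gene lists (rows, with the number of measured genes in brackets). Each grey point is a gene, the black bar is the list median and the dashed line marks the highest gene of the distant tissues list, 7.19; ribosomal protein, respiratory chain, epithelial core and enterocyte lists lie at the top, and lists of muscle, endothelium, glia, blood and fat lie mostly left of the line. The pancreatic acinar row is a mean over arrays of which control 1 was far higher.

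Genes of energy supply and translation filled the same range. All 29 measured genes of the respiratory chain list were in the top 10% of signals, with a median of 13.30 and a median SD of 0.05. Cytochrome oxidase subunit Cox5b (14.26 ± 0.04) and ATP synthase subunit Atp5b (14.15 ± 0.04) led it. Of 78 ribosomal protein genes, 44 had a probe set with that symbol alone, and 36 of these were in the top 10% (median 13.92). Rps16 was listed at 3.77 ± 0.13 although its protein is part of every ribosome, so that a low probe set signal need not mean a low transcript.

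Paneth cell genes gave some of the highest signals of all, though few alpha-defensins had a probe set with 1 symbol. Of 31 listed genes, 11 were measured, with a median of 11.75, and 7 of them were in the top 10%. The median is the value of Clps, which had 12.87 in control 1 and 11.47, 11.35 and 11.31 in the others. Pla2g2a, with 14.42, 9.69, 10.22 and 9.93 in controls 1 to 4, lay above 10.73 in control 1 alone. Beside Lyz1, the lectin Itln1 had 14.14 ± 0.08, the ribonuclease Ang4 13.65 ± 0.21 and the pentraxin Mptx1 12.86 ± 0.07. The alpha-defensins are antimicrobial peptides of high sequence similarity, so their probe sets can read several copies and their values are uncertain. Defa39 was at 14.31, whereas Defa31 and Defa3 were at 6.93 ± 0.22 and 6.13 ± 0.15. The Wnt ligand Wnt3, which Paneth cells supply to stem cells, was at 3.76 ± 0.06, within the range of distant-tissue genes.

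Goblet cell genes spanned a wide range. Of 20 measured genes, 9 were in the top 10%, and the list median was 9.81. Secreted products were highest, with the trefoil peptide Tff3 at 14.08 ± 0.10, the lectin Zg16 at 14.07 ± 0.15, the mucus protein Fcgbp at 13.64 ± 0.17 and the peptidase inhibitor Spink4 at 13.36 ± 0.08. The main gel-forming mucin Muc2 had 12.55 ± 0.19. Transcription factors of the lineage were lower, with Atoh1, which commits cells to the secretory fate, at 9.10 ± 0.14 and Spdef at 8.29 ± 0.08. Control 2 was the highest array for 13 of the 20 genes (28.1% of all genes) and control 3 the lowest for 14 (22.3% of all genes), with list means of 10.48, 10.59, 10.26 and 10.29 in controls 1 to 4.

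Hormone and tuft cell genes were lower. The enteroendocrine list had a median of 7.08 over 27 measured genes, 2 of them in the top 10%. These were the granule protein Chgb, with 11.69, 12.25, 12.08 and 12.26 in controls 1 to 4, and Gip, the incretin hormone of the upper intestine, with 11.50, 11.64, 11.48 and 11.70. Substance P precursor Tac1 (10.03 ± 0.30) and cholecystokinin Cck (9.78 ± 0.20) followed. Pyy and Nts, hormones of the lower intestine, were at 5.34 ± 0.07 and 5.53 ± 0.20, while Gcg, the precursor of glucagon-like peptides, also made there, was at 8.16 ± 0.27. The tuft list had a median of 6.81 over 17 genes, and 3 of 17 exceeded the highest distant-tissue gene, namely Ltc4s (8.27 ± 0.18), Avil (7.84 ± 0.08) and Alox5ap (7.80 ± 0.17). Dclk1, the usual tuft cell marker, was at 6.64 ± 0.16.

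Absorptive genes were strong in these crypt samples. The enterocyte list had a median of 11.88, and 22 of 29 genes were in the top 10%. The fatty acid carriers Fabp1 and Fabp2 had 14.49 ± 0.05 and 14.11 ± 0.08, apolipoprotein Apoa1 13.85 ± 0.21 and the brush border phosphatase Alpi 13.84 ± 0.18. Of the 10 genes of the proximal intestine 9 exceeded the highest distant-tissue gene, and of the 8 distal ones 4 did, where 50% of all genes do. The patterning factors Gata4 and Pdx1 were at 10.22 ± 0.15 and 9.20 ± 0.14, while 3 genes of the ileum lay within the range of distant-tissue genes, the bile acid transporter Slc10a2 at 3.09 ± 0.03, the bile acid binder Fabp6 at 4.21 ± 0.14 and the hormone Fgf15 at 4.37 ± 0.11. The mucin Muc3 (12.24 ± 0.24) and the transporter subunit Slc51a (11.74 ± 0.25), also on the distal list, were high.

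Stem cell genes covered the middle of the scale. The list had 23 measured genes and a median of 8.99, with 6 in the top 10%. Olfm4, a secreted glycoprotein of crypt base cells, had 12.99, 13.21, 13.10 and 13.21 in controls 1 to 4, the ion transporter Slc12a2 12.54 ± 0.18, and Hopx, a marker of slowly cycling cells, 12.07 ± 0.09. The most used stem cell marker, the R-spondin receptor Lgr5, was at 7.28 ± 0.11, just above the highest distant-tissue gene, and the stem cell factor Ascl2 at 8.68 ± 0.14. Control 1 was the lowest array for 16 of the 23, against 31.6% of all genes. Of 21 measured genes of niche signalling the highest were Erbb3 (11.36 ± 0.16), a receptor of the EGF family, and the Wnt receptor Fzd5 (11.17 ± 0.18). The Notch target Hes1 had 10.02 ± 0.16.

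Proliferation genes were high in every control array. All 29 genes of the G2/M list exceeded the highest distant-tissue gene (median 9.74), as did 31 of 33 genes of the G1/S list (median 10.26). When all probe sets of each gene were averaged, these medians were lower, at 8.33 and 8.53. Pcna, the sliding clamp of DNA replication, had 12.92, 12.96, 13.04 and 13.15 in controls 1 to 4, the ubiquitin ligase partner Ube2c 12.23 ± 0.20 and the proliferation antigen Mki67 11.80 ± 0.11. Small differences between arrays ran through whole lists. Control 4 was the highest array for 30 of 33 G1/S genes and for 25 of 25 ribosome biogenesis genes, against 23.6% of all genes, although its list means exceeded the control average by only 0.16 and 0.20. The nucleolar proteins Ncl and Npm1 led the second list at 13.01 ± 0.12 and 12.86 ± 0.15. Control 2 was the lowest array for 20 of 29 G2/M genes, against 21.7% of all genes.

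The genes that the study deleted in its other groups are given here as control values only, since no label states the alleles of the controls. Myc, a transcription factor of growth and ribosome production, had 9.90, 9.77, 9.69 and 10.30 in controls 1 to 4, so that control 4 was again the highest. The cell cycle factors E2f2, E2f3 and E2f1 averaged 9.12 ± 0.16, 8.78 ± 0.14 and 7.88 ± 0.15 (SD, n = 4 each).

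Lists of other cell types were low apart from scattered members. Medians were 6.56 for B and plasma cells, 6.47 for T cells, 6.23 for fibroblasts, 6.04 for mast cells, 5.84 for smooth muscle, 5.77 for myeloid cells, 5.67 for endothelium, 5.54 for enteric neurons and glia and 4.65 for fat cells. Each of these lies under 7.19, the signal of Prm1. The members above it included Ctss (10.89 ± 0.19) and Lyz2 (10.83 ± 0.22) of the myeloid list and Mylk (10.82 ± 0.11) of the smooth muscle list, genes that other cells can express too. The muscle genes Des and Acta2 were low, at 6.80 ± 0.14 and 6.77 ± 0.15. Some lymphocyte genes were not. Igha of the B and plasma cell list averaged 9.74 ± 1.44 and Gzma of the T cell list 9.51 ± 1.29, each above 7.19 on every control array. Of the T cell list 5 of 23 genes had means above 7.19, and of the B and plasma cell list 3 of 13, where 50% of all genes do. The collagen genes Col3a1 and Col1a2 were at 7.06 ± 1.12 and 7.16 ± 0.45. Values of the T and B cell lists differed between arrays, as described below.

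Spread between control arrays was small for most genes. The median SD was 0.11, and 85.8% of genes had an SD under 0.2. A range of at least 1 log2 unit, which is 2-fold between the highest and the lowest control array, was found for 356 of 18193 genes (1.96%), and a range of at least 2 units, which is 4-fold, for 91 (0.5%). Control 1 decided most of this. Over controls 2 to 4 alone, 137 genes (0.753%) had a range of at least 1, whereas leaving out control 2, 3 or 4 gave 306, 282 and 296. Measured against the mean of the other 3 controls, 163 genes were at least 1 higher and 16 at least 1 lower in control 1. In each of the others at most 20 were higher and 49 to 68 were lower, against a mean that includes control 1. In 10 equal bins of signal the median SD was 0.11 in the lowest, 0.13 in the sixth and 0.089 in the highest, whereas the share of genes with a range of at least 1 was 0.33% in the lowest, 3.63% in the fifth and 1.21% in the highest.

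**Figure D2:**
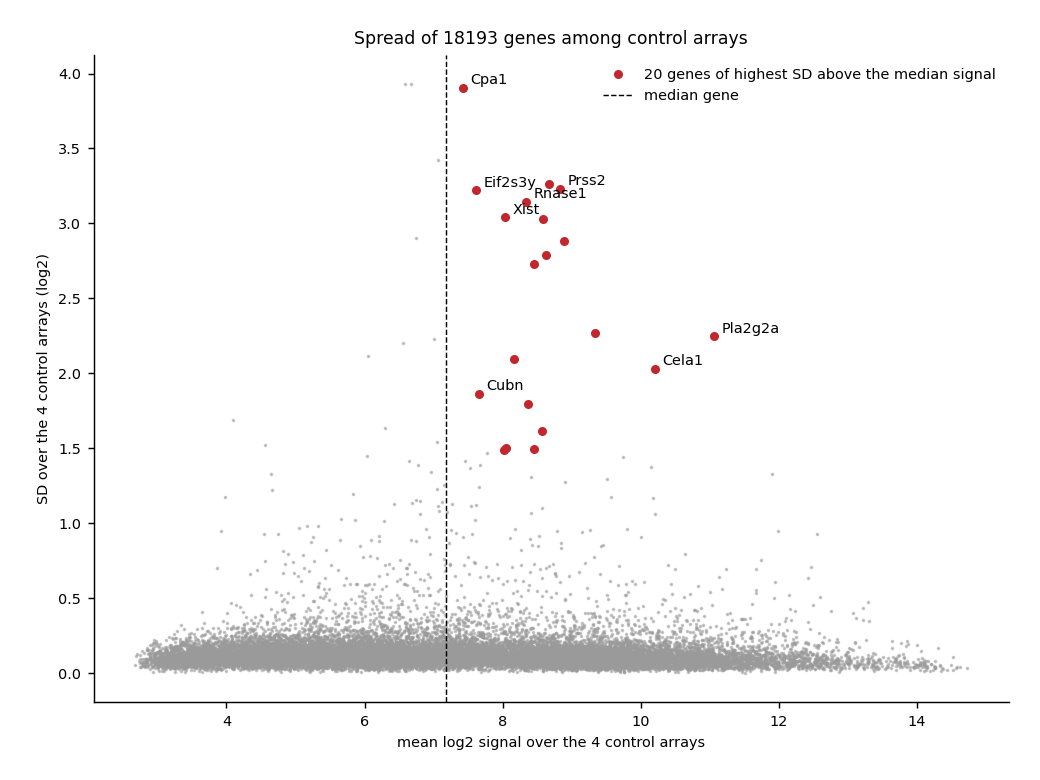
SD over the 4 control arrays (y axis, log2) against the mean log2 signal (x axis) of 18193 genes. Grey points are genes, the dashed line is the median signal of 7.18, and red points are the 20 genes of highest SD above it, some of them named; most genes lie under an SD of 0.2, and Cpa1, at 3.91, has the highest SD of the red points.

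Genes of the exocrine pancreas had the widest spread, and it lay in control 1. These genes encode digestive enzymes that acinar cells of the pancreas, a gland next to the upper intestine, secrete into the gut. All 9 measured acinar genes had a range of at least 1 over the 4 arrays (1.96% of all genes) and none over controls 2 to 4 (0.753% of all genes). The list mean was 13.00 in control 1 against 6.35, 6.46 and 6.62 in controls 2, 3 and 4. Carboxypeptidase Cpa1 had 13.28 in control 1, and 5.25, 5.59 and 5.57 in the others. The proteases Ctrb1 and Prss2 had 13.55 and 13.68 in control 1, and at most 7.40 in the others. Elastases Cela3b and Cela1 had 12.80 and 13.25, though Cela1 stood at 9.31, 9.21 and 9.07 in the others. Lipase-related Pnliprp1 had 13.22, 7.43, 7.46 and 7.45, chymotrypsin-like Ctrl 12.55, 6.92, 7.11 and 7.26, and the zymogen granule protein Sycn 12.67, 8.90, 7.82 and 7.98 in controls 1 to 4. Control 1 was the highest array for each of these genes, as it was for 27.4% of all genes. Most of them were named for a high SD over these same arrays. Prss2, Ctrb1 and the elastases belong to gene families of similar sequence, so their probe sets can read relatives. Insulin Ins2, of the endocrine pancreas, had 6.72, 6.63, 6.62 and 6.56, a range of 0.16. Ins2 is itself on the distant tissues list and lies under its highest signal, 7.19. At such a level a flat signal does not show whether RNA of the endocrine pancreas was present. Colipase Clps, a pancreatic cofactor that is also on the Paneth list, had 12.87 in control 1 and 11.47, 11.35 and 11.31 in the others. The bacterial RNA controls were higher on the same array, and their part in these values was not tested.

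Acinar enzyme promoters are known for a paired site of an E-box and the letters TTTCCC, bound by the acinar factor PTF1. The motif searched was CANNTG, any 4 bases and TTTCCC in a row, on both strands, in the 250 bases before the start of each gene in RefSeq (GRCm38.p6). It was found in 2 of 9 acinar genes and in 0.0792% of 32841 promoters. The 2 promoters are shown as the ones with a match, in capitals, and are those of Ctrb1 (chr8:111691011-111691260, minus strand) and Cela1 (chr15:100687921-100688170, minus strand). The match begins 205 bases before the start of Ctrb1 and 109 bases before that of Cela1.
Ctrb1: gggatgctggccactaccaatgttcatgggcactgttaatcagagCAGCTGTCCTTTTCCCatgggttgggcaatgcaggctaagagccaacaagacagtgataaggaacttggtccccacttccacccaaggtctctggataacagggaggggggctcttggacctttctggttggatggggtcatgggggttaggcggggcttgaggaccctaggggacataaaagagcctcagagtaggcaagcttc
Cela1: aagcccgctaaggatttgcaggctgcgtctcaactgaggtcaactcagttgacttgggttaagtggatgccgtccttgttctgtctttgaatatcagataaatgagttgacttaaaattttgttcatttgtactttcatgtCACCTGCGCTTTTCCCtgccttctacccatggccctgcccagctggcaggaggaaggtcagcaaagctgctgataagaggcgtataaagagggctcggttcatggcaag
The other 7 promoters do not hold these letters in this window, which says nothing of the factor.

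**Figure D3:**
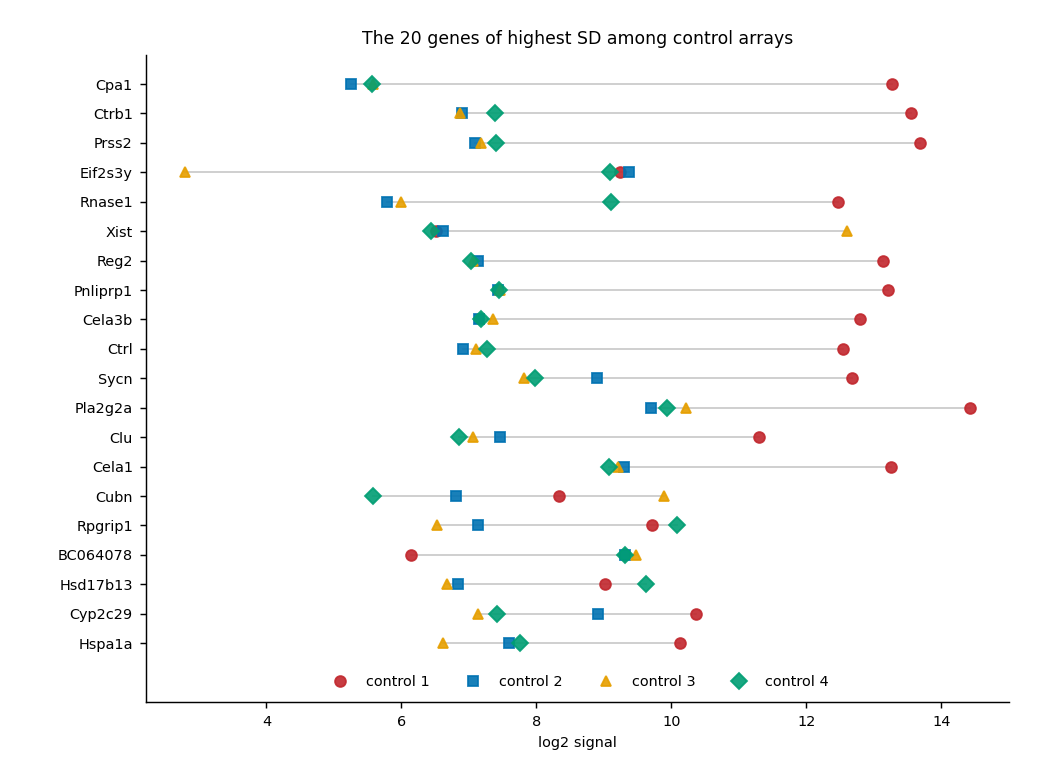
Log2 signal (x axis) in each of the 4 control arrays of the 20 genes with the highest SD among genes above the median signal (rows, ordered by SD). Each symbol is 1 array and the grey line joins the lowest and the highest; the acinar genes, Reg2 and Pla2g2a lie far right in control 1 alone, Eif2s3y and Xist differ in control 3, and Rnase1, Rpgrip1 and Hsd17b13 are high in controls 1 and 4.

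Among the 100 genes of highest SD with a mean above the median signal, control 1 was farthest from the rest for 62, high in 55 of them. These genes were chosen by SD over the same arrays, which favours an array that stands apart. The same share over all genes was not computed. Control 1 was the highest array for 27.4% of all genes and the lowest for 31.6%, which is a different measure. The mean was taken over all 4 arrays, so a high value in 1 array could carry a gene past that limit, and genes such as Cpb1 and Cela2a, with SDs of 3.93 each but means of 6.58 and 6.67, lay below it. Several of the 100 genes encode secreted proteins. Reg2, a member of the Reg lectin family, had 13.14 in control 1, and 7.14, 7.06 and 7.03 in the others, and its relative Reg3d 9.58 against 6.82, 6.88 and 6.84. Reg3b, an antibacterial lectin, differed in every array, with 13.35, 10.29, 12.54 and 11.45 in controls 1 to 4. By contrast Reg1 and Reg4 stayed within 0.23 and 0.37 over the arrays. Pla2g2a, a secreted phospholipase of Paneth cells that kills bacteria, had 14.42 in control 1 and 9.69, 10.22 and 9.93 in the others. The chaperone Clu had 11.29 in control 1 and at most 7.47 in the others. Lcn2, an iron-binding defence protein, is not among the 100 genes because its mean was 5.27. It had 6.39 in control 1 and 4.89, 4.95 and 4.86 in the others, all below the highest distant-tissue gene.

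T cell genes were also highest in control 1. Of 23 measured genes, 12 had a range of at least 1 (1.96% of all genes), and 1 did without control 1 (0.753%). Control 1 was the highest array for 22 of 23, against 27.4% of all genes, and the list mean was 7.15, 6.20, 6.08 and 6.26 in controls 1 to 4. The granzyme Gzma, a killing protease of lymphocytes, had 11.41, 8.59, 8.80 and 9.24, and the chemokine Ccl5 10.75, 8.11, 8.01 and 8.73. The receptor subunit Cd3g had 8.35, 6.30, 5.98 and 6.60. Of 19 myeloid genes, 16 were also highest in control 1, and 10 were lowest in control 4 (24.3% of all genes), such as the adaptor Tyrobp with 7.74, 6.50, 6.36 and 6.31. Of the 14 fibroblast genes, 12 were highest in control 1. Col3a1 had 8.34, 5.71, 7.46 and 6.73, so that control 2 was the lowest. Endothelial genes differed less, with list means of 5.70, 5.53, 5.50 and 5.52.

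B and plasma cell genes were lowest in control 3. For B and plasma cell genes the list mean was 7.23, 6.81, 5.97 and 6.47 in controls 1 to 4, and control 3 was the lowest array for 11 of 13 genes, against 22.3% of all genes. Of these genes 6 had a range of at least 1 (1.96% of all genes), and 5 did without control 1 (0.753%). The antibody heavy chain gene Igha had 11.77, 9.34, 8.35 and 9.51, and Jchain, which joins antibody units, 9.17, 7.98, 6.20 and 7.32. The B cell surface gene Ms4a1 had 7.09, 6.95, 4.87 and 6.19. Among MHC class II genes, which present antigen to T cells, H2-Ab1 had 9.60, 8.84, 7.08 and 8.15 and Cd74, their invariant chain, 10.32, 9.55, 8.02 and 9.19, while H2-Ea was highest in control 3 at 8.37. The class II list mean was 7.99, 7.71, 7.14 and 7.41 in controls 1 to 4, but the lowest array was control 3 for only 3 of the 8 genes, control 2 for 3 and control 4 for 2. Of these 8 genes, 3 had a range of at least 1 over all controls (1.96% of all genes) and 3 over controls 2 to 4 (0.753%).

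Control 3 was also the array with X and Y genes apart. Xist, the RNA that coats the inactive X chromosome of female cells, had 6.51, 6.61, 12.60 and 6.44 in controls 1 to 4. The Y-linked translation factor Eif2s3y had 9.23, 9.37, 2.79 and 9.09, the demethylases Kdm5d 7.63, 7.88, 3.26 and 7.45 and Uty 7.29, 7.49, 5.08 and 7.34. X-linked genes that escape inactivation were highest there in 3 of 4 cases, as for Kdm6a with 8.68, 8.80, 9.58 and 8.86 and Eif2s3x with 11.33, 11.56, 11.98 and 11.57. Kdm5c, the other of these, had 8.33, 8.62, 8.88 and 8.42, and Ddx3x was highest in control 2 at 12.23. The labels give no sex. A difference of sex and any other difference of control 3 cannot be told apart.

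**Figure D4:**
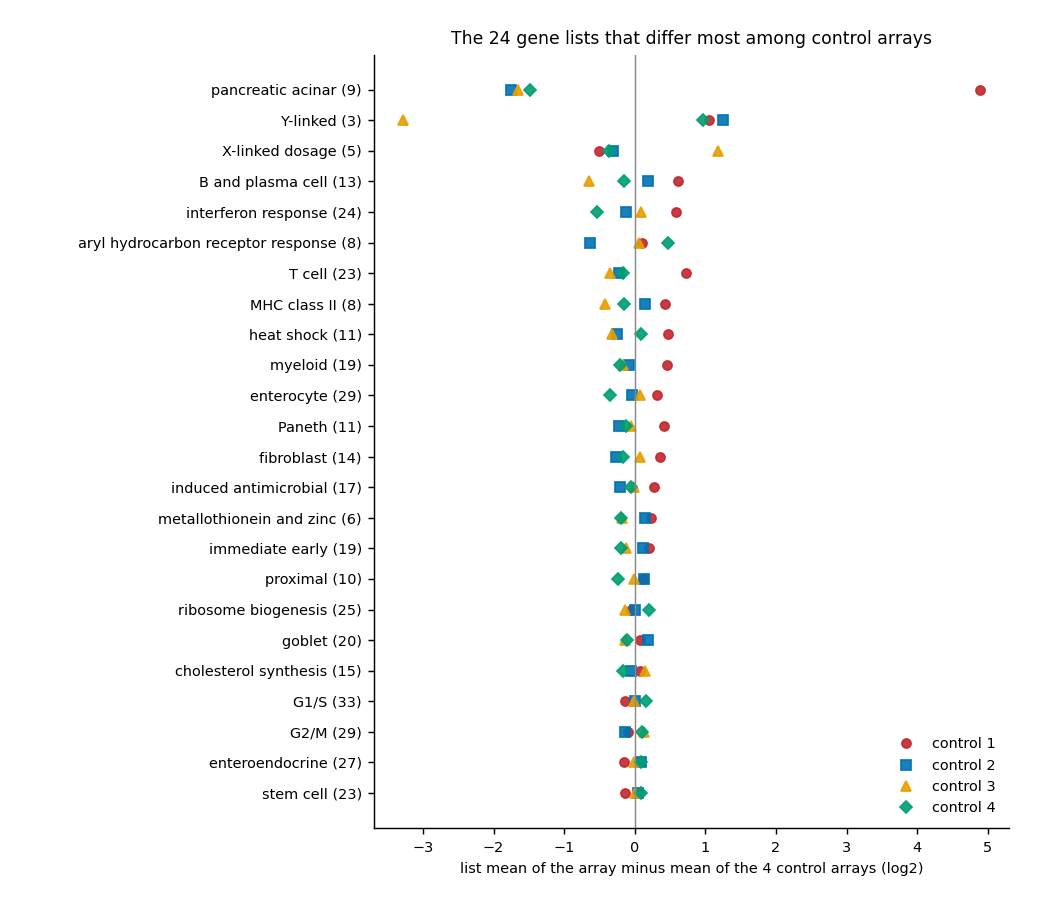
Mean log2 signal of a gene list in each control array minus the mean over the 4 control arrays (x axis), for the 24 lists that differ most (rows, with measured genes in brackets). Each symbol is 1 array; control 1 lies at 4.89 for pancreatic acinar genes, control 3 at -3.28 for Y-linked genes, control 2 at -0.64 for aryl hydrocarbon receptor genes and control 4 at -0.54 for interferon genes.

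Interferon response genes were highest in control 1 and lowest in control 4. They encode antiviral effectors and sensors that interferon switches on. The list mean was 7.50, 6.78, 7.0 and 6.37 in controls 1 to 4, and 10 of 24 genes had a range of at least 1 (1.96% of all genes), and 7 did without control 1 (0.753%). Control 1 was highest for 22 of 24 genes (27.4% of all genes) and control 4 lowest for 21 (24.3% of all genes). Means were above 7.19, the highest distant-tissue signal, for 10 of the 24 genes and for 50% of all genes. The RNA binder Ifit1 had 7.92, 5.80, 6.02 and 4.41, Oasl2 8.45, 6.60, 7.49 and 5.31, and Rtp4 8.90, 7.38, 7.95 and 6.22. Ifit1 and Oasl2 averaged 6.04 and 6.96, below that signal. The sensors Ifih1 and Ddx58 had SDs of 0.15 and 0.30, against a median of 0.11 over all genes. The interferon-stimulated response element was searched as TTTC, any 2 bases and TTTC in a row, on both strands. Of the 24 genes, 16 had a promoter in the table, and 10 of these held it, against 2.98% of all promoters. Ifit1 (chr19:34640639-34640888, plus strand) and its relative Ifit3 (chr19:34583279-34583528, plus strand) are shown, each with 2 matches in capitals. Ifit3 had 6.85, 6.05, 6.17 and 5.62 in controls 1 to 4, the same order of arrays, with all values below 7.19.
Ifit1: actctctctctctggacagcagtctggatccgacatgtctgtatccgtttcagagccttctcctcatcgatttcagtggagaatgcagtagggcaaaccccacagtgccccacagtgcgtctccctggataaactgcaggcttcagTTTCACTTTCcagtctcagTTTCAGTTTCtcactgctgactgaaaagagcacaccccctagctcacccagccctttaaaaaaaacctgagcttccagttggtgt
Ifit3: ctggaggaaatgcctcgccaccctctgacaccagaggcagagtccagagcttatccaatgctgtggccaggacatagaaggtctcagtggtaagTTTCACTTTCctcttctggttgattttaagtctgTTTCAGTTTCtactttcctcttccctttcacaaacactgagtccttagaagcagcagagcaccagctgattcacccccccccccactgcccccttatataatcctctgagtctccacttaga

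Aryl hydrocarbon receptor target genes were lowest in control 2. The receptor binds plant and synthetic ligands, such as the inducers used with Ah-cre, and switches on detoxifying enzymes. Cyp1a1, whose promoter drives that recombinase, had 13.30, 12.66, 13.44 and 13.80 in controls 1 to 4, and its relative Cyp1b1 8.14, 5.64, 8.39 and 8.94. Ahrr, the repressor of the receptor that it induces itself, had 6.91, 5.83, 7.72 and 8.30. Tiparp and Nqo1 kept the same lowest and highest array, with 9.94, 9.25, 9.83 and 10.29 and with 10.95, 10.44, 10.87 and 11.12. Of 8 genes 5 had a range of at least 1 over all controls (1.96% of all genes), and 5 over controls 2 to 4 (0.753%). Control 2 was the lowest array for 6 of the 8, against 21.7% of all genes. Cyp2s1, also on the list, was highest in control 2 at 11.10, and Cyp1a2 was lowest in control 3 at 6.23. The core of the xenobiotic response element, GCGTG on either strand, was found in 4 of 7 of these genes with a promoter and in 28.2% of all promoters, so that so short a motif is common. The promoters of Cyp1a1 (chr9:57697363-57697612, plus strand), Cyp1b1 (chr17:79715062-79715311, minus strand) and Ahrr (chr13:74292332-74292581, minus strand) are shown because these genes carry the pattern. Matches are in capitals, and CACGC is the same motif on the other strand.
Cyp1a1: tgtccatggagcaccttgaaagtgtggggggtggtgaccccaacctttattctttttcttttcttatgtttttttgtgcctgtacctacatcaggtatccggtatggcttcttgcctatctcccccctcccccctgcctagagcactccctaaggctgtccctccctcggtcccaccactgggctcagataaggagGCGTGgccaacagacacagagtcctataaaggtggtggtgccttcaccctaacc
Cyp1b1: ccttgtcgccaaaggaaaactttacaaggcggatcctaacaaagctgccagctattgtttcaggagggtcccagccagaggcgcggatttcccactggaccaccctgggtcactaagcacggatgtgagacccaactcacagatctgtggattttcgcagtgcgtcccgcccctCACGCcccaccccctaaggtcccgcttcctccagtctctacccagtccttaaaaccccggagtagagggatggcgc
Ahrr: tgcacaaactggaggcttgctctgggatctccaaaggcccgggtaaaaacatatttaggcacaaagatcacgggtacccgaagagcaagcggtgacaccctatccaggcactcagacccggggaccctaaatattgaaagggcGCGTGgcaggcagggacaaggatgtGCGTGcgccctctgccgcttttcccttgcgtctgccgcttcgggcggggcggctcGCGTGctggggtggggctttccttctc

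Absorptive and stress genes added further spread. Control 4 was the lowest array for 22 of 29 enterocyte genes (24.3% of all genes), with list means of 11.89, 11.55, 11.66 and 11.23 in controls 1 to 4. The receptor Cubn, which takes up vitamin B12, had 8.33, 6.81, 9.89 and 5.59, the nucleotide pyrophosphatase Enpp3 10.03, 9.03, 7.92 and 8.19, and lactase Lct 12.39, 11.51, 11.74 and 11.06. Of these 29 genes, 5 had a range of at least 1 (1.96% of all genes), and 3 did without control 1 (0.753%). Folate transporter Slc46a1, of the proximal list, had 11.04, 10.72, 10.37 and 9.65. The inducible heat shock genes Hspa1a and Hspa1b, chaperones that lie side by side on chromosome 17, had 10.12, 7.60, 6.62 and 7.76 and 11.95, 9.40, 8.81 and 10.41, with control 1 highest in both. These genes are near-identical copies, so their signals may not be separate. The constitutive chaperone Hspa8 did not follow, with 13.83, 13.89, 13.76 and 13.95. Over the heat shock list of 11 genes the mean was 11.59, 10.87, 10.80 and 11.21 in controls 1 to 4. Control 1 was highest for 7 of these genes and control 4 for 4, against 27.4% and 23.6% of all genes. The early response gene Fos had 10.55, 9.48, 9.26 and 9.42. The metal-binding Mt2 had 13.06, 12.89, 11.48 and 12.45, low in control 3.

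A few genes outside these lists also set single arrays apart. BC064078 had 6.15 in control 1 and 9.31, 9.48 and 9.32 in the others, and the intraflagellar transport gene Ttc30b 6.74 against 8.70, 8.75 and 8.51. Control 2 was highest for Gkn3, a gastrokine, with 8.60, 10.10, 8.89 and 8.83 in controls 1 to 4. Control 3 was highest for the sugar transporter family member Slc5a4a, with 10.12, 9.18, 11.02 and 8.92, and for the cytokine signalling inhibitor Socs2, with 10.42, 10.69, 11.69 and 10.53. Hsd17b13, an enzyme of lipid droplets, was high in controls 1 and 4, with 9.02, 6.84, 6.68 and 9.63. The class I gene H2-Bl had 9.93, 10.73, 11.39 and 8.68, lowest in control 4.

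Some of the most variable genes lie close together in the genome. Of the same 100 genes of highest SD above the median signal, 93 were placed in the reference gene table of GRCm38.p6. Among these, 13 pairs had at most 5 coding genes between them. Several of the pairs are relatives, such as Hspa1a with Hspa1b, Reg2 with Reg3d and H2-Ab1 with H2-Aa. Such pairs were not counted among other genes, so the count does not show that variable genes lie closer together than others. On chromosome 14, Rnase1, a secreted ribonuclease, had 12.47, 5.79, 6.0 and 9.11 in controls 1 to 4, and Ang, a ribonuclease of the same family 2 coding genes away, 10.12, 8.33, 8.36 and 9.80. Rpgrip1, a ciliary protein gene beyond the limit of 5, with 23 coding genes between it and Rnase1, had 9.71, 7.13, 6.52 and 10.08. Controls 1 and 4 were above controls 2 and 3 in all 3 genes. These genes were picked for a high SD over the same arrays. The share of all genes with this order of arrays was not computed. The acinar list mean was 13.00 in control 1 and 6.62 in control 4. Whether the Rnase1 signal of control 1 belongs with the acinar genes was not tested. On chromosome 1 the adjacent genes Wdfy1 and Ap1s3 had 7.60, 9.37, 9.20 and 9.23 and 7.57, 9.03, 8.95 and 8.96, low in control 1 alone. Enpp5 and Enpp4, adjacent on chromosome 17, were low in control 3, at 8.21 and 7.85.

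**Figure D5:**
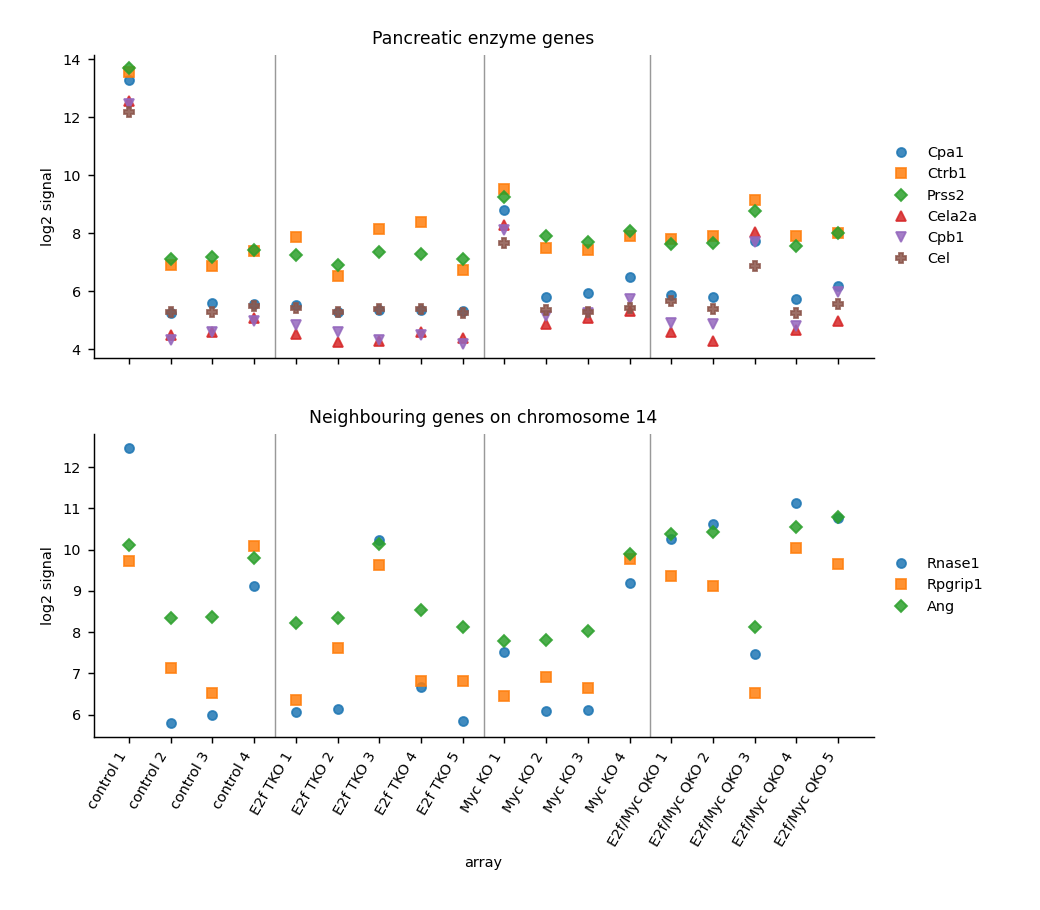
Log2 signal (y axis) of 6 pancreatic enzyme genes (top) and of Rnase1, Rpgrip1 and Ang (bottom) on all 18 arrays (x axis), with control arrays at the left and vertical lines between groups; each point is 1 array. Pancreatic genes are highest in control 1, and the chromosome 14 genes are high in controls 1 and 4 and in some arrays of every other group.

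Many of the genes of widest spread in control crypts also varied within the other groups, which the ranking did not use. Of the 100 genes of highest control SD above the median signal, 71 were in the top 10% of SD within E2f TKO arrays, 93 within Myc KO arrays and 76 within E2f/Myc QKO arrays, where 10% of all genes above the median signal are. Without the E2f TKO arrays labelled 2 and 5, the first count was 59. Of the 20 genes of highest SD the counts were 11, 17 and 16, and the first was 8 without those arrays. The genes were ranked with control 1 included, and these counts were not repeated without it. Within E2f TKO arrays Cpa1, Cela3b and Prss2 had SDs of 0.096, 0.12 and 0.18, under the median of 0.21 for genes above the median signal. Ctrb1 and Sycn had 0.86 and 0.73 there. Pancreatic genes differed in which knockout arrays were highest. Cpa1, which had 13.28 in control 1, had 8.81 in Myc KO 1 and 7.74 in E2f/Myc QKO 3, and between 5.27 and 6.48 in the remaining knockout arrays. Ctrb1, at 13.55 in control 1 and at most 7.39 in the other controls, had 9.54 in Myc KO 1, 9.15 in E2f/Myc QKO 3 and 8.40 in E2f TKO 4. For Sycn, at 12.67 in control 1, the highest knockout arrays were E2f TKO 5 at 9.56 and E2f TKO 2 at 9.25. Pla2g2a had 14.42 in control 1 and 14.59 in Myc KO 2, and at most 11.58 elsewhere. Reg2 had 13.14 in control 1 and at most 7.93 on any knockout array. The Rnase1 signal was above 9 in controls 1 and 4, and also in E2f TKO 3, Myc KO 4 and E2f/Myc QKO 1, 2, 4 and 5.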

How the data were processed

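Biotin-labelled total RNA of crypts was hybridised to arrays, per the labels. The authors deposited log2 signals, a scale inferred from the numbers themselves, with probe summary and normalization not given in the sources used here. They were used as deposited. Of 45101 probe sets, 34945 have 1 gene symbol in the platform annotation, 932 have several, 9160 none and 64 are array controls. Each of the 18193 genes is given by its probe set of highest mean over all 18 arrays (9010 genes had several). No column of values was left over (0) and no pair of arrays was identical (0). Means, SDs, ranges and list means were computed over the control arrays with Python 3.11.15, pandas 2.3.3 and numpy 2.4.6, and figures drawn with matplotlib 3.10.9. Because only control arrays are described, no test between groups was run. The SDs and ranges hold only the spread between these samples, which may be technical, and the number of arrays limits their precision. Scripts were tested on simulated data.

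The genes named are the 20 of highest mean, the 20 of highest SD above the median gene, the 8 highest and 8 lowest of each array against the other 3, the 5 of lowest SD in the top 10% of signals, up to 4 members of each list by mean and 4 by SD, the Y-linked, X-linked and targeted genes, and the Reg and alpha-defensin families. Lgr5, Ascl2, Muc2, Atoh1, Spdef, Dclk1, Pyy, Nts, Cdx1, Cdx2, Wnt3, Rps16, Gata4, Pdx1, Slc10a2, Fabp6, Fgf15, Ifit3, Ang, Enpp4 and Enpp5 were named outside this rule after their values were seen. The control samples and the 42 gene lists were chosen with earlier results of these data known. Promoters come from RefSeq, GRCm38.p6. Alternatives were quantile normalization, median centring, averaging over the probe sets of each gene, leaving out those ending in _s_at or _x_at, other thresholds and filters, and each array left out in turn.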

Additional observations from a re-analysis of the deposited data

Results flagged for a closer look

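Of 93 values looked at, 26 had 1 array far from the other 3 by Dixon's 95% criterion for 4 samples, a criterion that chance meets in about 1 in 20 groups. Many of the genes looked at had been chosen for a high SD over these same arrays, so the count cannot be set against that rate. Control 1 was that array in 19, control 3 in 4, control 2 in 2 and control 4 in 1. These values share arrays and genes, so they are not independent.

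Control 1 was high in the means of the pancreatic acinar list (13.00), the T cell list (7.15) and the endothelial list (5.70), and in the added bacterial RNA (7.85). It was also high in Cpa1 (13.28), Ctrb1 (13.55), Prss2 (13.68), Reg2 (13.14), Pnliprp1 (13.22), Cela3b (12.80), Ctrl (12.55), Pla2g2a (14.42), Clu (11.29), Cela1 (13.25), Reg3a (11.90) and Reg3d (9.58). The same array was low in BC064078 (6.15), Reg4 (11.93) and Eef1a1 (14.56).

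Control 3 was high in Xist (12.60) and in the mean of the X-linked list (11.05), and low in Eif2s3y (2.79) and in the mean of the Y-linked list (3.71). The X-linked list of 5 genes includes Xist and the Y-linked list includes Eif2s3y, so these means are not separate from those genes. Means without Xist or Eif2s3y were not examined. Control 2 was low in Defa39 (14.06) and in the mean of the distant tissues list (4.95). Control 4 was low in Fth1 (14.68). The whole range over the 4 arrays was 0.07 for Fth1, 0.08 for Eef1a1 and 0.37 for Reg4, and it was 0.07 for the mean of the distant tissues list.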

How the results depend on the processing

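No paired analysis was possible because only control samples are described and no result comes from a test. Scaling changed little, since quantile normalization and median centring kept the direction of all 10 list deviations described and left all but 2 of the 42 list medians where they were, within the spread of the arrays. The choice of probe set mattered more. When all probe sets of each gene were averaged, 31 of the 42 list medians moved beyond the spread of the arrays. Among these, medians were 12.47 for epithelial core, 8.30 for stem cell, 8.53 for G1/S, 8.33 for G2/M, 9.21 for goblet and 6.65 for tuft genes. Without the _s_at and _x_at probe sets the G1/S median was 9.74. The count of genes with a range of at least 1 was 137 to 306 when 1 array was left out (lowest without control 1), 176 among genes above the median signal, and 91 at a range of at least 2. Of the 20 genes of highest SD, 5 to 16 stayed in the top 20 when 1 array was left out (5 without control 1, 13 without control 3), 5 by median absolute deviation, 13 with no filter on low signals and 3 in the top 25% of signals. Low signals cannot be told from background, and 4 arrays give coarse SDs.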

Other observations

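Of 17 genes of the induced antimicrobial list, which holds defence proteins that epithelium makes on contact with microbes, 5 had a range of at least 1 (1.96% of all genes) and 2 did without control 1 (0.753%). The list mean was 8.97, 8.50, 8.69 and 8.64 in controls 1 to 4. In the unfolded protein list Hspa5 led at 13.30 ± 0.07 and Xbp1, a factor of secretory cells, was at 12.85 ± 0.10. In cholesterol synthesis Hmgcs1 was at 11.86 ± 0.14, and Dhcr7 had the widest spread, with 10.09, 9.90, 9.88 and 9.15 in controls 1 to 4. In fatty acid oxidation Acaa2 was at 12.98 ± 0.12. Of 13 genes, 2 had a range of at least 1 (1.96% of all genes), and none did without control 1 (0.753%). The 2 genes were Pdk4, which restrains glucose use, with 8.56, 7.14, 7.37 and 8.07, and the thioesterase Acot1, with 8.71, 9.60, 9.28 and 9.80. Pdk4 was high in controls 1 and 4. Of the circadian genes Cry1 had the widest range (0.94) and Per1 the highest SD (0.47). Per1 had 8.30, 7.66, 7.37 and 8.31, and Per2 had 7.83, 7.43, 7.22 and 8.10, again higher in controls 1 and 4. The p53 target Cdkn1a had 10.71, 10.22, 10.36 and 10.41.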
